A study of Mus musculus with 5 samples.

Results

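The genes described are 44 members of the mouse Wnt signaling machinery, chosen by name, out of 17923 genes listed in at least 1 of 5 RNA-Seq libraries. They comprise 19 Wnt ligands, 10 Frizzled receptors, the co-receptors Lrp5, Lrp6, Ryk, Ror1 and Ror2, 8 secreted antagonists, and Porcn and Wls, which are needed for ligand secretion. The libraries were made from mouse thyroid tumor cell lines that all carry BrafV600E. Ctnnb1, the gene of β-catenin, is labelled as intact in BVE-Ctnnb1wt (wt, 2 libraries) and as deleted in BVE-Ctnnb1null (null, 3 libraries), and the cells were grown from thyroid tumors of donor mice. Both wt libraries came from the line BVE at passage 20, replicate 1 labelled without and replicate 2 labelled with thyroid-stimulating hormone (TSH). The null libraries came from 3 lines, BVECTN_4 at passage 8 and without TSH (replicate 1), BVECTN_4A at passage 11 (replicate 2) and BVECTN_5 at passage 7 (replicate 3), with TSH not stated for the latter pair. The protocols instead describe about 25 passages (wt) or 20 (null) in medium holding bovine TSH at 4 mU/mL. The ages of the donor mice and the drivers of the Braf and Ctnnb1 alleles are not given in the sources used here. Since the wt group is a single line, genotype, line and passage cannot be told apart, and p-values measure only the spread between these libraries. Estimated read counts summed to between 29360002 and 30713079 per library. A count of 0 allows up to 3 counts, which is between 0.098 and 0.102 CPM (counts scaled to a common library total) and covers counting error only. FPKM, in which a count is scaled to transcript length and library total, was used to describe each gene in each library. It is not corrected for differences in RNA composition. On log2(FPKM + 0.1) the median of all genes tested was 0.61 higher in null than in wt, and comparisons of the groups on FPKM carry this shift.

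Wnt proteins are secreted lipid-modified ligands. Porcn attaches the lipid and Wls carries the ligand to the cell surface, where it binds a Frizzled receptor. With Lrp5 or Lrp6 as co-receptor this stabilizes β-catenin (canonical signaling), whereas Ror2 and Ryk serve β-catenin-independent responses. Sfrp proteins and Wif1 bind the ligands outside the cell, and Dkk1 and Dkk2 block Lrp5 and Lrp6. Dkk3 is a diverged member of the Dkk family. β-Catenin, whose gene is labelled as deleted in the null cells, acts downstream of the canonical branch.

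Ctnnb1 itself did not follow the labels. Its FPKM was 59.3 and 73.8 in wt replicates 1 and 2 and 125, 196 and 118 in null replicates 1, 2 and 3, higher in each null library on this scale. After TMM normalization, which corrects CPM for differences in RNA composition, null replicate 3 lay below wt replicate 2 (344 against 356 CPM). The fitted log2 difference (null minus wt) was 0.55 with a standard error of 0.44 and an edgeR adjusted p of 0.517. The files give values per transcript and do not show the deleted exons separately, so groups are named here by their labels only. The thyroid label was checked with 11 follicular genes. Tg was between 0.04 and 0.86 FPKM and Tshr at most 0.11 in the 5 libraries, while the transcription factor gene Nkx2-1, the most abundant of the list on average, was at 9.21 and 15.0 in the wt and 9.26, 34.8 and 0.26 in the null libraries. Pax8, another thyroid transcription factor gene, was low in the wt, at 0.4 and 0.17 FPKM, and at 18.15, 12.8 and 2.56 in the null libraries, above Nkx2-1 in null replicates 1 and 3. The summed FPKM of the follicular list was 15.3 and 20.6 in the wt and 35.2, 68.5 and 4.84 in null replicates 1, 2 and 3. Markers of C cells summed to between 1.76 and 6.08 FPKM, with Calcb as the most abundant on average, Syp the most abundant in both wt libraries (2.07 and 1.57) and Calca and Chga at most 0.74. Endothelial markers summed to at most 0.68, with Kdr as the most abundant on average and Pecam1 and Cdh5 at most 0.04. Among the leukocyte markers, Cd68 was at up to 59.8 FPKM and Csf1r at up to 0.37, and Ptprc, Adgre1 and Cd3e were not listed in any library.

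Epithelial and fibroblast markers separated the lines. The 9 epithelial genes summed to 1098 and 1774 FPKM for the wt pair and 13375, 706 and 1420 in null replicates 1, 2 and 3, with Krt7 the most abundant on average and Krt8 between 201 and 1798 in every library. Epcam was at 5.04 and 4.61 FPKM in the wt and 152, 0 and 59.6 in the null libraries, and Cdh1 was at 1.94 and 1.62 against 136, 0 and 20.9. The 11 fibroblast genes summed to 328 and 295 FPKM in the wt libraries, 1.74 and 186 in null replicates 1 and 2, and 1492 in null replicate 3, with Col1a1 the most abundant. Pdgfra was at 3.54 and 2.71 FPKM in the wt and 0.1, 2.86 and 21.5 in the null libraries, and Pdgfrb, at 0 in null replicate 1, was between 5.06 and 23.4 elsewhere. Dcn, at most 0.12 FPKM elsewhere, was at 84.7 in null replicate 3, and Thy1, at most 0.24 elsewhere, was at 88.5. In such libraries of bulk RNA, fewer cells of a type and less RNA per cell cannot be told apart.

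Of the 44 members, 29 reached an FPKM of at least 1 in at least 1 library, 11 were listed below that level in every library and 4 (Wnt3a, Wnt8a, Wnt8b and Fzd10) were not listed. The 11 low members were Wnt1, Wnt2, Wnt2b, Wnt3, Wnt9b, Wnt16, Fzd3, Ror1, Sfrp5, Dkk1 and Wif1, with at most 0.13 FPKM and 34 counts. Dkk1, the founding antagonist of the Dkk family, had 4 counts in null replicate 2 and 0 in the other libraries. In single libraries, 17 and 15 members had an FPKM of at least 1 in the wt and 19, 19 and 25 in null replicates 1, 2 and 3. Over all genes listed, the same level was reached by 52.2% and 50.4% in the wt and 58.3%, 58.8% and 60.4% in the null libraries.

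**Figure D1:**
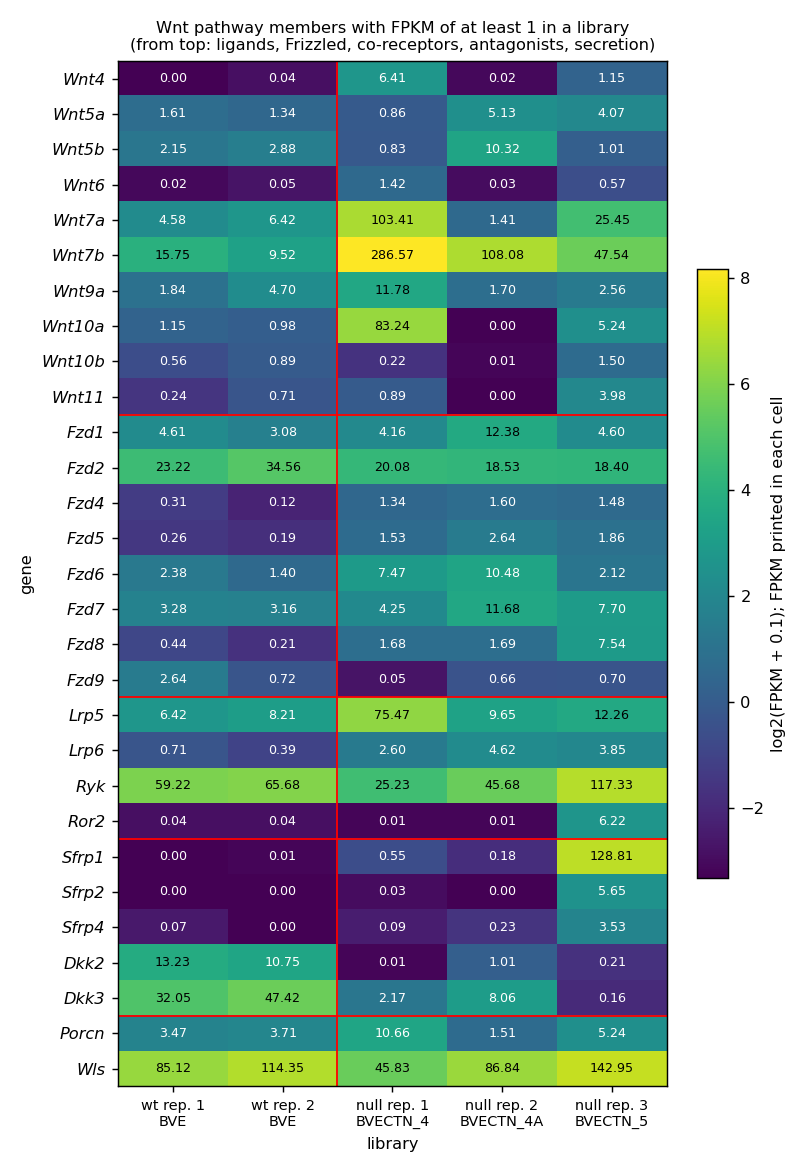
FPKM of the 29 members with an FPKM of at least 1 in a library (rows, by role, red lines between roles) in the 5 libraries (columns); color gives log2(FPKM + 0.1) and each cell prints the FPKM. Wnt7b, Ryk and Wls were abundant throughout, Wnt10a reached 83.24 in null replicate 1 only, Sfrp1 reached 128.81 in null replicate 3 only, and Dkk2 and Dkk3 were highest in the wt libraries.

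Wnt7b, the gene of a ligand known for lung and kidney development, was the most abundant ligand in all 5 libraries. Its FPKM was 15.8 and 9.52 in wt replicates 1 and 2 and 287, 108 and 47.5 in null replicates 1, 2 and 3. All null libraries exceeded both wt libraries, by the least in null replicate 3. Wnt7b took 56.5% and 34.6% of the summed FPKM of the ligands in the wt and 57.8%, 85.3% and 50.9% in the null libraries. The sum over all ligands was 27.9 and 27.5 FPKM for the wt pair and 496, 127 and 93.3 in the null libraries. The most abundant of 3 Wnt7b transcripts in RefSeq took 94.0% and 92.4% of the gene's FPKM in the wt, 90.0% and 90.5% in null replicates 1 and 3 and 66.6% in null replicate 2, a division among overlapping transcripts that is itself an estimate.

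Several other ligands were present in some null lines and absent or low in others. Wnt7a, a close relative of Wnt7b, was at 4.58 and 6.42 FPKM in the wt and 103, 1.41 and 25.45 in null replicates 1, 2 and 3. Null replicate 2 was thus below both wt libraries and the other null libraries above them. Wnt10a, a ligand of skin appendages and teeth, was at 1.15 and 0.98 FPKM in the wt, with 83.2 for null replicate 1 and 5.24 for null replicate 3. In null replicate 2 it had 0 counts, which allows up to 0.102 CPM, against 4940 counts in null replicate 1. Wnt4, a ligand of kidney and gonad development, was not counted in wt replicate 1, had 5 counts in wt replicate 2 and reached 743, 2 and 131 in null replicates 1, 2 and 3. Wnt6 followed the same order of null libraries, with 88, 2 and 35 counts against 1 and 3 in the wt. Wnt9a was at 1.84 and 4.70 FPKM in the wt and at 11.8, 1.70 and 2.56 in the null libraries, so that only null replicate 1 lay outside the wt range on the high side. These 5 ligand genes all had their highest level in null replicate 1, the library with the highest summed epithelial markers, and the part of epithelial content in this was not tested.

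Wnt5a, Wnt5b and Wnt11 are ligands known for β-catenin-independent signaling. Wnt5a was at 1.61 and 1.34 FPKM in the wt and 0.86, 5.13 and 4.07 in null replicates 1, 2 and 3, so null replicate 1 was the lowest of the 5 libraries. Wnt5b was at 2.15 and 2.88 FPKM in the wt and 0.83, 10.3 and 1.01 in the null libraries, with only null replicate 2 above the wt. Wnt11 was at 0.24 and 0.71 FPKM for the wt pair and 0.89 and 3.98 in null replicates 1 and 3, with 0 counts in null replicate 2. Wnt10b, a canonical ligand, was at 0.56 and 0.89 FPKM in the wt, 0.22 and 0.01 in null replicates 1 and 2 and 1.5 in null replicate 3. The wt and null ranges overlapped for each of these 4 genes.

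Among the 26 members that reached 0.5 FPKM in 2 or more libraries, 5 were past 2-fold above the wt mean in a null library and past 2-fold below it in another on log2(FPKM + 0.1), namely Wnt5b, Wnt7a, Wnt10a, Wnt11 and Porcn. That is 19.2%, against 7.70% of the 11888 genes with the same FPKM. Of the 5, 4 were ligands, as were 10 of the 26. No test was made of this share. Null replicate 1 had 14 members past 2-fold higher and 7 lower (backgrounds 35.9% and 12.5%). Null replicate 2 had 11 higher and 7 lower (backgrounds 40.0% and 10.4%), and null replicate 3 had 13 higher and 3 lower (backgrounds 41.5% and 9.21%). These 3 comparisons use the same wt libraries, and each sets a single null library against them, so they have no replicate check. Between the wt libraries, Wnt9a and Wnt11 were past 2-fold higher and Fzd9 past 2-fold lower in replicate 2, labelled with TSH (backgrounds 4.09% and 9.35%).

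**Figure D2:**
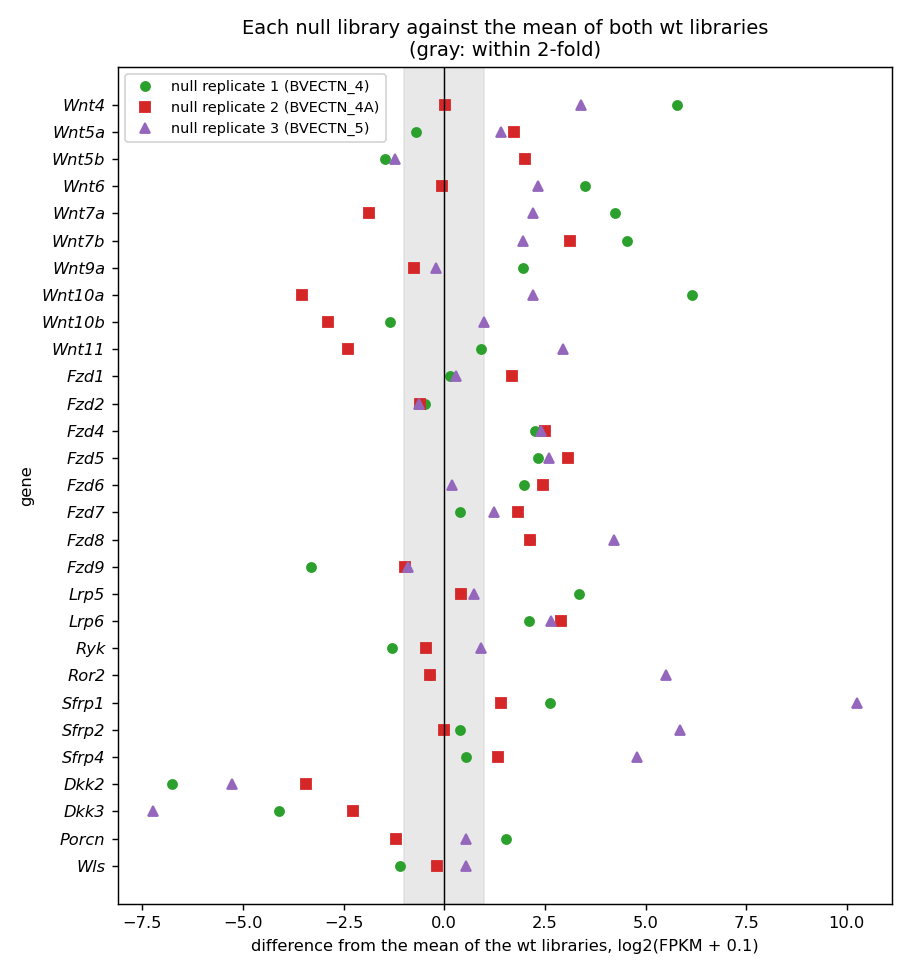
Difference of each null library from the mean of both wt libraries on log2(FPKM + 0.1) (horizontal axis) for the 29 members with an FPKM of at least 1 in a library (vertical axis); the gray band is 2-fold. Wnt7a, Wnt10a and Wnt11 lie left of the band in null replicate 2 and right of it in null replicate 3, whereas Fzd4, Fzd5 and Lrp6 lie close together on the right and Dkk2 and Dkk3 on the left in all 3 null libraries.

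The promoters of 30 members were taken from the RefSeq table of GRCm38.p6, as 33 windows of 250 bases before a start site. Entries of another length were left out, as were any member windows on 1 chromosome, which the windows of all genes still include. The windows were searched on both strands for CTTTGAT. These are the core letters that TCF and LEF factors, the partners of β-catenin on DNA, are known to prefer. The letters were in 2 of 33 windows (6.06%) and in 3.21% of 32851 windows of all genes, so the members' share rests on a pair of matches, 1 in Wnt11 and 1 in Wnt5b. A match is a description of these letters, not a site. The member windows held a median of 22 CG pairs, against 6 over all windows. The matching windows are shown with the match in capitals, followed by those of Wnt7a, whose level went both ways between the null lines, and Dkk2, whose groups did not overlap, in which these letters were not found.
Wnt11, chr7:98834862-98835111, strand +: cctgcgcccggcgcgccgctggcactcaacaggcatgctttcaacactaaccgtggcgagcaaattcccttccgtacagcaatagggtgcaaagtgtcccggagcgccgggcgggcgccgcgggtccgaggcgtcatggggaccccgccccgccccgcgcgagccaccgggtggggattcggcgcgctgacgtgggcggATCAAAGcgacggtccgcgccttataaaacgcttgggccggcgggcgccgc
Wnt5b, chr6:119449387-119449636, strand -: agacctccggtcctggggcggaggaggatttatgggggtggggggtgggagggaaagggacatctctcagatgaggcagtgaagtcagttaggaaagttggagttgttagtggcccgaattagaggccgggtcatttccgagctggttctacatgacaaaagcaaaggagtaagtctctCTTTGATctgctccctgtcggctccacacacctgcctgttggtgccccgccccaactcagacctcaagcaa
Wnt7a, chr6:91411354-91411603, strand -: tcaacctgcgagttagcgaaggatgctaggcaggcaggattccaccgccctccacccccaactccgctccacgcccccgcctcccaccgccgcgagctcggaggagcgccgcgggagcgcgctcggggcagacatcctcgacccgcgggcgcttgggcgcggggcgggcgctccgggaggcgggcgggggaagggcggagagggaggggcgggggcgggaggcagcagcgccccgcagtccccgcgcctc
Dkk2, chr3:132085042-132085291, strand +: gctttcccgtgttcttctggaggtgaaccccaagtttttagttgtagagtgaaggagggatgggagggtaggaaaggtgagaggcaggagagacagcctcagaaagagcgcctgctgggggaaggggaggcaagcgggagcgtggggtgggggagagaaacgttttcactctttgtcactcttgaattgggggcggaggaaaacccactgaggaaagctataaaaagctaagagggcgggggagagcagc
The Wnt11 match lies on the opposite strand, as ATCAAAG, and begins 51 bases before the start. The Wnt5b match begins 71 bases before its start. Both genes have other start sites in the table, whose windows did not hold these letters.

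Fzd2 was the most abundant Frizzled receptor gene in every library, at 23.2 and 34.6 FPKM in the wt and 20.1, 18.5 and 18.4 in null replicates 1, 2 and 3, all below both wt libraries. Fzd4, the receptor gene known for retinal vessel growth, was at 0.31 and 0.12 FPKM in the wt and at 1.34, 1.6 and 1.48 in the null libraries. Fzd5 was at 0.26 and 0.19 FPKM in the wt and at 1.53, 2.64 and 1.86 in the null libraries. Both genes were thus at low levels, with every null line above the wt values. Fzd8, a close relative of Fzd5, was at 0.44 and 0.21 FPKM in the wt, 1.68 and 1.69 in null replicates 1 and 2 and 7.54 in null replicate 3. Fzd9 was at 2.64 and 0.72 FPKM in the wt and 0.05, 0.66 and 0.70 in the null libraries, so wt replicate 2 lay just above null replicate 3. Fzd1, Fzd6 and Fzd7 were each highest in null replicate 2, at 12.4, 10.48 and 11.7 FPKM. Fzd1 was at 4.61 and 3.08 FPKM in the wt and 4.16 and 4.6 in null replicates 1 and 3, and Fzd6 was at 2.38 and 1.40 in the wt and 7.47 and 2.12. Fzd7 was at 3.28 and 3.16 FPKM in the wt and 4.25 and 7.70 in null replicates 1 and 3, above the wt on this scale. In CPM after TMM normalization null replicate 3 (31.1) was still above the wt (19.3 and 21.3), but null replicate 1 (19.2) was not.

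Among the co-receptors, Lrp6 was at 0.71 and 0.39 FPKM in the wt and 2.60, 4.62 and 3.85 in null replicates 1, 2 and 3, with no overlap of the groups. Lrp5, which serves the same canonical role, was at 6.42 and 8.21 FPKM in the wt and 75.5, 9.65 and 12.3 in the null libraries, with null replicate 1 far above the others. In CPM after TMM normalization null replicates 2 and 3 (41.5 and 53.0) lay between the wt libraries (40.3 and 59.1), and null replicate 1 (365) above them. Ryk, the most abundant co-receptor gene in 4 of the 5 libraries, was at 59.2 and 65.7 FPKM in the wt and 25.2, 45.7 and 117 in the null libraries, on both sides of the wt. Ror2, a receptor of Wnt5a, had 740 counts in null replicate 3 and 5, 5, 1 and 1 counts in wt replicates 1 and 2 and null replicates 1 and 2. Its relative Ror1 had at most 14 counts in any library.

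Dkk3 was the most abundant antagonist gene in 4 of the 5 libraries, and Sfrp1 in null replicate 3. Dkk3 was at 32.05 and 47.4 FPKM in wt replicates 1 and 2 and 2.17, 8.06 and 0.16 in null replicates 1, 2 and 3. Dkk2 was at 13.2 and 10.8 FPKM in the wt and 0.01, 1.01 and 0.21 in the null libraries, or 1518 and 1246 counts against 2, 111 and 23. Both genes were below the wt range in every null library. Sfrp1 was represented by a single count in both wt libraries together, by 73 and 23 counts in null replicates 1 and 2, and by 16876 counts in null replicate 3, where its FPKM was 129. Sfrp2 had 334 counts in null replicate 3 and 2 counts in null replicate 1, with 0 elsewhere. Sfrp4 had 4 and 0 counts in the wt and 5, 12 and 185 in the null libraries. All 3 of these Sfrp genes were highest in null replicate 3, the library whose fibroblast markers summed to 1492 FPKM, and the part of fibroblast content in this was not tested. In the same library Epcam (59.6 FPKM), Cdh1 (20.9) and Pax8 (2.56) were above both wt libraries and Nkx2-1 (0.26) was below them. Of the other epithelial markers, Krt7, Krt19, Cldn4, Cldn7 and Esrp1 were above both wt libraries and Krt8 (201) was below them. Krt18 (367) and the sum of the epithelial list (1420) lay within the wt range. The antagonists summed to 45.4 and 58.2 FPKM in the wt, 2.87 and 9.56 in null replicates 1 and 2, and 138 in null replicate 3. Dkk3 took 70.7% and 81.5% of this sum for the wt pair and 75.6% and 84.3% in null replicates 1 and 2, and Sfrp1 took 93.1% in null replicate 3.

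**Figure D3:**
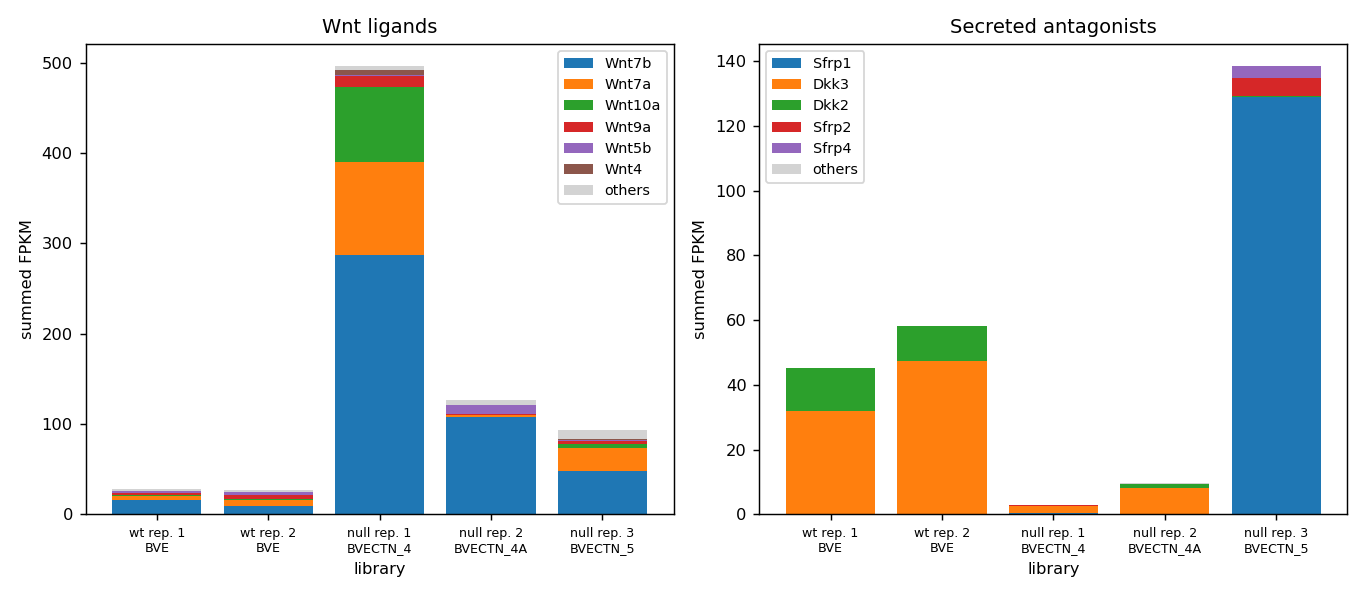
Summed FPKM (vertical axis) of the Wnt ligands (left) and of the secreted antagonists (right) in each library, divided by gene. The ligands sum to 495.72 in null replicate 1 and to 27.9 and 27.53 in the wt libraries, with Wnt7b the most abundant in each, and the antagonists are mainly Dkk3 and Dkk2 in the wt and Sfrp1 in null replicate 3.

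Both secretion genes were present in every library. Wls was at 85.1 and 114 FPKM in the wt and 45.8, 86.8 and 143 in the null libraries, a range that enclosed the wt on this scale only. In CPM after TMM normalization null replicates 1 and 2 (115 and 193) lay below both wt libraries (277 and 426). Null replicate 3 (320) lay between them. Porcn was at 3.47 and 3.71 FPKM in the wt, 10.7 and 5.24 in null replicates 1 and 3 and 1.51 in null replicate 2.

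The groups were compared over 13251 genes with edgeR's quasi-likelihood test on counts. The test included the 40 listed members, of which 29 passed the filter on low counts by themselves. At an adjusted p under 0.05, 0 members and 0 genes in all (0.00% higher and 0.00% lower) were called, with 0.187 as the lowest adjusted p of a member. At an unadjusted p under 0.05, 8 members were higher (Wnt4, Wnt7b, Fzd3, Fzd4, Fzd5, Fzd8, Lrp6 and Sfrp1) and 3 lower (Fzd2, Dkk2 and Dkk3) in the null libraries, or 20% and 7.5% of the 40 tested, against 12.4% and 6.08% of all genes. DESeq2 called 6 members higher (Wnt4, Wnt7b, Fzd4, Fzd5, Fzd8 and Lrp6) and 2 lower (Dkk2 and Dkk3) among 38 with an adjusted p, or 15.8% and 5.26%, against 8.47% and 3.71% of all genes. Wnt4, Fzd3 and Sfrp1, with at most 5 counts in a wt library, could pass the filter on low counts only through the null libraries, so these shares are a description and nothing is read from them. Wnt4 was called although 2 counts in null replicate 2 lay within the wt range. The median log2 fold change (null against wt) of the 40 members was 1.76, against 0.30 over all genes tested. It was 0.59 with the 11 members at 0 in both wt libraries (the low members above with Sfrp2 in place of Ror1) set to the bound that 3 counts over the wt group allow, and without null replicate 1 it was 1.01. The median over all genes moved with the scaling, to 0.21 with DESeq2's size factors, 0.87 without TMM factors and 0.61 on log2(FPKM + 0.1). The main fitted differences of single members are therefore given below with their distance from the median of 0.30.

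Of the 29 members at an FPKM of at least 1, 6 had every null library above both wt libraries in CPM after TMM normalization (20.7%, against 21.9% of genes at that level) and 4 had every null library below both (13.8%, against 17.8%). Both shares are near the background and say nothing particular about this family. On FPKM the counts were 9 above (31%, against 35.8%) and 4 below (13.8%, against 7.22%). Over all listed members, in CPM after TMM normalization, 7 were above and 4 below, where the shares over all genes tested were 22.5% and 17.3%. Fzd3, with 7, 15 and 34 counts against 0 and 0, is included in the 7. The number above became 13 without null replicate 1 and 12 without null replicate 2. The 4 below became 8 without null replicate 3. With a library omitted, fewer values have to be on the same side for any gene. The share over all genes is not given for these omissions, so nothing is read from them.

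For Wnt7b the fitted log2 difference (null minus wt) was 3.04 with a standard error of 0.89 and an edgeR adjusted p of 0.195, and it lay 2.74 above the median of all genes. It was 1.99 without null replicate 1, the library with the highest level. Among the receptors it was 2.58 for Fzd5 (SE 0.65, edgeR adjusted p = 0.189), 2.23 for Fzd4 (SE 0.80, edgeR adjusted p = 0.23) and 2.17 for Lrp6 (SE 0.54, edgeR adjusted p = 0.188). These lay 2.28, 1.93 and 1.87 above the median of all genes, and Fzd4 had 2.91 without wt replicate 1 and 1.77 without wt replicate 2. The mean FPKM of Lrp6 was 0.55 ± 0.226 (SD, n = 2) for wt and 3.69 ± 1.02 (SD, n = 3) for null. The difference for Fzd8 was 2.89 (SE 0.99, edgeR adjusted p = 0.221), or 2.60 above the median of all genes, and 1.78 without null replicate 3. Fzd2 was lower, with -1.21 (SE 0.43, edgeR adjusted p = 0.228), -1.5 relative to the median of all genes, and with -0.77 without wt replicate 2. Its difference was -0.61 without TMM factors and between -0.58 and -0.55 with limma on FPKM, so its size depended on the scaling. Fzd9 had -2.41 (SE 1.17, edgeR adjusted p = 0.315), or -2.70 relative to that median, with -1.33 without wt replicate 1 and -3.01 without wt replicate 2.

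Among the 40 members tested, Dkk2 and Dkk3 had the most negative fitted differences. Dkk2 had -5.49 (SE 1.33, edgeR adjusted p = 0.187), with 12.0 ± 1.75 FPKM (SD, n = 2) for wt and 0.41 ± 0.529 (SD, n = 3) for null. Dkk3 had -4.15 (SE 1.30, edgeR adjusted p = 0.203), with 39.7 ± 10.9 FPKM (SD, n = 2) and 3.46 ± 4.11 (SD, n = 3). Relative to the median of all genes these were -5.79 and -4.44. Without null replicate 2, the null library with the highest Dkk2 and Dkk3, the fitted differences were -7.40 for Dkk2 and -5.71 for Dkk3. The smallest differences with a library omitted were -4.95 for Dkk2, without null replicate 1, and -3.61 for Dkk3, without null replicate 3. DESeq2 gave Dkk2 an adjusted p = 0.000241 and Dkk3 an adjusted p = 0.00838. In the other limma and edgeR fits with both wt libraries the adjusted p went up to 0.265 for Dkk2 and 0.255 for Dkk3. With a single wt library, assumed to vary like the null libraries, edgeR gave an adjusted p of 0.727 or 0.834 for both genes. With 2 libraries against 3, an exact permutation test cannot give a p below 0.1, and none is given for these members, which were picked because their groups did not overlap. No fold change is given for Sfrp1, because the wt libraries held a single count.

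**Figure D4:**
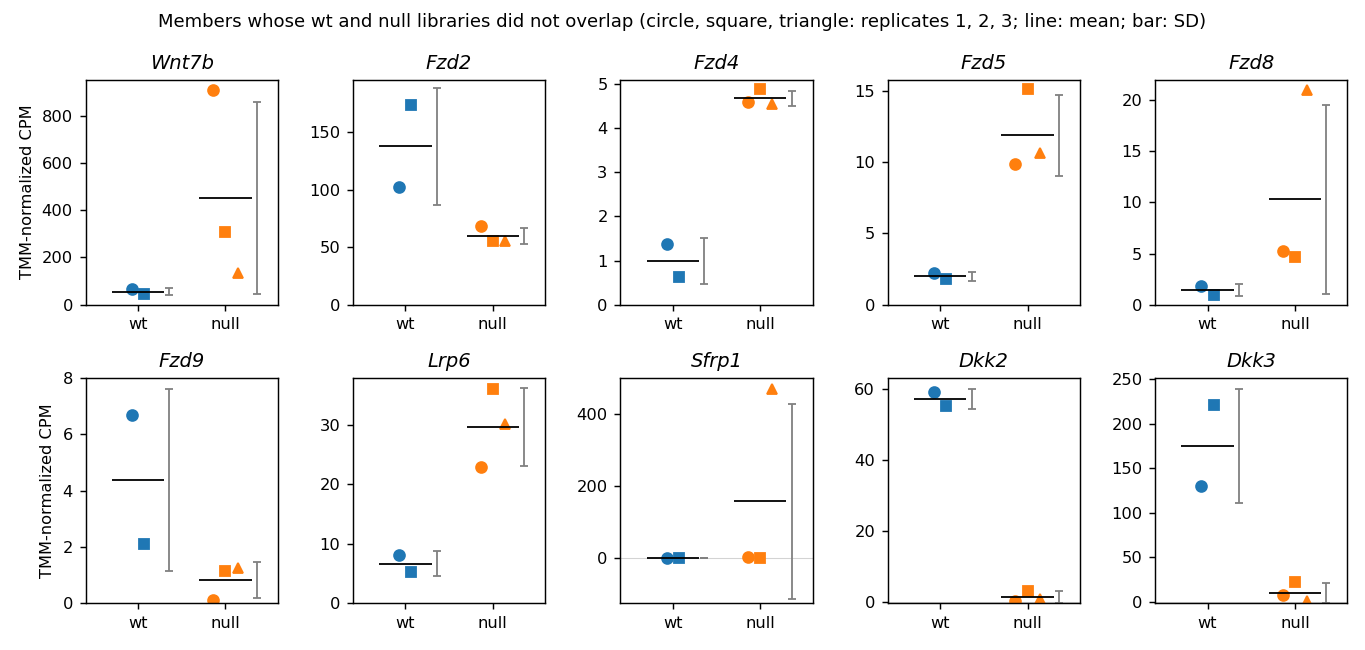
TMM-normalized CPM (vertical axes, linear) of the 10 members, among those with an FPKM of at least 1 in a library, whose 2 wt (blue) and 3 null (orange) libraries did not overlap. Points are libraries, black lines group means and gray bars the SD; Fzd4, Fzd5 and Lrp6 show a small spread among null libraries, while Wnt7b is highest in null replicate 1 and Sfrp1 is high in null replicate 3 alone.

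Other membrane and secreted genes of the pathway were taken from a list of 30, of which 19 were tested. None passed an adjusted p of 0.05 in edgeR. At an unadjusted p under 0.05, 4 of the 19 were higher and 1 was lower (backgrounds 12.4% and 6.08%), and DESeq2 called 4 higher and 1 lower (backgrounds 8.47% and 3.71%). Lgr6, Celsr1 and Celsr2, with at most 7 counts in a wt library, could pass the filter only through the null libraries, and Rspo4, with at most 1 count in a null library, only through the wt, so nothing is read from these shares. The median log2 fold change of the list was 1.03, against 0.30 over all genes tested. Lgr6, a receptor of R-spondins, had 6 and 7 counts in the wt and 2618, 729 and 68 in null replicates 1, 2 and 3. Lgr4, of the same family, had 16 and 25 counts in the wt and 218, 81 and 586 in the null libraries. The planar polarity cadherin genes Celsr1 and Celsr2 had at most 7 counts in a wt library and at least 53 and 36 in each null library, with 1220 and 535 in null replicate 1. The gene with the lower value was Rspo4, an R-spondin that potentiates Wnt signals, at 0.74 and 0.50 FPKM in the wt and at most 0.01 in the null libraries, named after its values were seen. So were Rspo1 and Rspo2, at 1.22 and 4.15 FPKM in null replicate 3 and 0 in the other libraries.

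All 24 genes of a list of cytoplasmic components were tested, and 0 passed an adjusted p of 0.05 in edgeR. At an unadjusted p under 0.05, 5 of the 24 were higher and 0 lower (backgrounds 12.4% and 6.08%), and DESeq2 called 4 higher and 0 lower (backgrounds 8.47% and 3.71%). Daam2 and Prickle2, with at most 2 and 19 counts in a wt library, needed null libraries to pass the filter, so nothing is read from these shares. The median log2 fold change of the list was 0.90. Tnks2, a tankyrase gene whose product marks Axin for degradation, was at 3.67 and 2.42 FPKM in the wt and 22.5, 26.7 and 32.8 in the null libraries. The fitted log2 difference was 2.59 (SE 0.45, edgeR adjusted p = 0.18). Its relative Tnks was at 0.91 and 0.86 FPKM in the wt and 4.11, 5.36 and 4.68 in the null libraries, and its difference was 1.82 (SE 0.48, edgeR adjusted p = 0.191). Both tankyrase genes were higher in every null line than in the wt. Csnk1g1, a casein kinase gene, was at 1.07 and 0.72 FPKM in the wt and 2.58, 4.64 and 3.07 in the null libraries. Prickle2, of the planar polarity pathway, had 19 and 8 counts in the wt and 10, 361 and 610 in null replicates 1, 2 and 3, so null replicate 1 lay within the wt range. The fifth gene was Daam2, named after its values were seen, with at most 2 counts in a wt library and 19, 27 and 125 in the null libraries.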

How the data were processed

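RNA from 2 BVE-Ctnnb1wt and 3 BVE-Ctnnb1null thyroid tumor cell libraries was prepared with a TruSeq kit and sequenced on an Illumina HiSeq instrument, per the study's methods. For each RefSeq transcript the authors deposited an estimated count (not always a whole number) and FPKM (called RPKM in the methods), listed from 0.01 upward. Read aligner, counter, genome build and annotation are not given in the sources used here. Both values were summed per NCBI gene number, with unlisted transcripts as 0, and counts were rounded. Symbols came from the RefSeq gene table of GRCm38.p6, which matched 17866 of 17923 genes, and promoters from RefSeq tables of that build. By symbol, 40 of the 44 members were found among the listed genes.

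The groups were compared with edgeR 4.0.16 in R 4.3.3 (TMM, filterByExpr with listed members kept, glmQLFit and glmQLFTest), with Benjamini-Hochberg adjustment over all genes and a threshold of 0.05. The standard error is the fold change divided by the root of F. Alternatives were DESeq2 1.42.0, limma 3.58.1 on log2(FPKM + 0.1, 0.01 or 1), edgeR without TMM factors or with other filters, omission of each library, and a replicate block. The edgeR, DESeq2 and limma fits were also run on simulated counts. These varied less between libraries of a group than the real counts, so nothing is read from that run. Python 3.11.15 and pandas 2.3.3 were used. The members and lists were chosen with earlier results of these data known. Members at an FPKM of at least 1 in a library are described singly, with fold changes for those whose groups did not overlap, a choice made after values were seen. From other lists, the 4 genes at that level with the lowest p are named. The mouse, cytotoxicity and overexpression experiments were not analysed here. Some single marker genes are not reported here.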

Additional observations from a re-analysis of the deposited data

How the results depend on the processing

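The 10 members with non-overlapping groups kept their direction under every alternative in which they could be fitted. They were picked because their groups did not overlap, so omitting a library could hardly turn a direction, and nothing is read from this. Of the 10, 7 passed an adjusted p of 0.05 with DESeq2 alone. Genes picked for non-overlap on the same counts were likely to pass, so nothing is read from this number either. With DESeq2, 1113 genes were called higher and 487 lower (8.47% and 3.71% of all genes). It called 6 members higher and 2 lower, and the median log2 fold change of the members was 1.19. Without a filter on low counts 4 genes were called lower, and with at least 10 counts in every library 1 gene was called lower, the members' median was 0.60 and 2 members lay below both wt libraries, since that filter removes others. With limma, 1 gene was called higher and 5 lower on log2(FPKM + 0.1), 1 and 3 with 0.01 added, and 1 and 7 with 1 added, with member medians of 0.98, 0.77 and 0.63, or 0.51 with 0.1 added and no filter. No member was called in these fits. With 1 added, which draws low values together, log2 fold changes were nearer 0 (1.03 for Fzd4, 1.28 for Fzd5, 1.58 for Fzd8 and Lrp6, -0.80 for Fzd9 and -3.26 for Dkk2), and with 0.01 added some were farther from 0 (2.86 for Fzd4, -6.18 for Dkk2 and -4.76 for Dkk3). Leaving out a library gave medians from 1.01 to 2.04, and leaving out a null library gave 0 calls. With a library left out, between 8 and 13 members were above and between 4 and 8 below the wt libraries. The share over all genes is not given for these counts, so nothing is read from them. The number of members found in wt replicate 2 was 23 at 10 or more counts. Members past 2-fold lower in null replicate 2 numbered 4 on log2(FPKM + 1) and 11 on log2(TMM CPM + 0.1), where the share over all genes was 6.92% and 21.5%, those in null replicate 3 numbered 5 on the latter (20.1% of all genes), and 1 was past 2-fold higher in wt replicate 2 on log2(FPKM + 1). The cause of these shifts was not tested. The replicate numbers of the groups share no stated source. Deviations of same-numbered libraries correlated at -0.088 (replicates 1 and replicates 2). A fit with the number as a block called 0 genes, with a member median of 1.53. Its log2 fold changes were 3.29 for Wnt7b, 1.90 for Fzd8, -6.54 for Dkk2 and -3.31 for Fzd9. In that fit null replicate 3 has no wt partner and adds nothing to the difference. The remaining pairs left little room for any call, so nothing is read from the 0 calls. Depth limits the 11 members with at most 0.13 FPKM.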
